A study of Mus musculus with 36 samples.

Results

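The genes described here are 35 mouse genes whose products work in the lysosome, and they were chosen by that function. All 35 were found among the 25453 genes with a value in the series, and all 35 were among the 13578 genes that could be tested. By role, 12 encode proteases and protease partners, 8 encode glycosidases, 8 act on lipids or are precursor proteins cut in the lysosome, and 7 are membrane proteins. The series holds 36 RNA-seq libraries of cells from the brains of C57/Bl6 mice. They come from 3 regions (olfactory bulb, cortex and brainstem) and, in each region, from 6 populations, 5 of them labelled with the letters A to E and 1 labelled Neg, which gives 18 groups of 2 libraries. The labels call the cells of every group astrocytes and name no treatment, age, pooling of animals or sorting antigen, and they do not say what Neg stands for. They also do not tie the paired libraries to different animals, and the p-values therefore reflect a spread between libraries that could be technical.

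Lysosomes are acidic organelles in which hydrolases break down proteins, sugars and lipids that arrive by endocytosis, phagocytosis or autophagy. Many of their genes share a short promoter element, CACGTG with preferred flanks, that the transcription factor TFEB and its relatives bind, and this set of genes is known as the CLEAR network. All brain cells have lysosomes, while microglia, the resident macrophages of the brain, are known for a high content of lysosomal proteases.

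Libraries differed widely in quality, and this touches every value below. The number of genes at 1 FPKM (fragments per kilobase of transcript and 1000000 mapped fragments) or more ran from 2104 to 10357. It was under 5000 in 8 libraries, which were cortex Neg replicate 2, both brainstem Neg libraries, cortex A replicate 2, cortex D replicate 2, olfactory bulb E replicate 1 and both brainstem E libraries. Relative depth, taken as the median read coverage per unit of FPKM, ran from 1.16 to 4.07 except in 2 shallow libraries of population E, replicate 1 from the brainstem (0.0695) and replicate 1 from the olfactory bulb (0.316). The summed FPKM of nuclear genes ranged from 23005 to 163132, so levels are given as deposited and, where this changes a result, after rescaling that sum to 1000000. The labels give no replicate numbers, and those used here follow the order of the libraries in the series. Replicate 2 of the libraries labelled brainstem D and of those labelled cortex E carried olfactory bulb genes in an earlier reading of these data, whose values are not given here. Every population held markers of several cell types, and the summed FPKM of 10 astrocyte markers ran from 1227 to 2885 in C, from 675 to 2319 in B, from 495 to 1252 in A, from 203 to 3105 in D, from 141 to 973 in E and from 40.9 to 452 in Neg.

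Promoter sequences of RefSeq (build GRCm38.p6) were matched to 31 of the 35 genes, in windows of 300 bases from 250 before to 50 after each start. The letters CACGTG, read on both strands, were in the window of 12 of the 31 (38.7%) and of 8.09% of the 27025 genes in the table. The longer TCACGTGA, which contains CACGTG, was in 5 of the 31 (16.1%; Cln3, Ctsa, Ctsd, Gla and Mcoln1) and in 1.12% of all genes. The letters GAGGAAGT, a form of the core that the myeloid transcription factor PU.1 binds, were in 4 of the 31 (12.9%; Ctsc, Ctss, Gla and Gusb) and in 3.69% of all genes. These are matches of letters and not measured sites. Windows follow the RefSeq start, which for Ctsd lies inside the GENCODE gene. The bases before the start (up to 250) are printed for 3 genes that the results below turn on, 5′ to 3′ on the gene's own strand, with the matches in capitals. Glb1 (chr9:114400828-114401075, plus strand; 248 bases, ended before its GENCODE start) rose in B with 1 CACGTG match, Lamp1 (chr8:13158911-13159160, plus strand) did not pass the test with 4, and Ctsc (chr7:88277835-88278084, plus strand) was the member called between B and C, with 1 GAGGAAGT read on the other strand.
Glb1: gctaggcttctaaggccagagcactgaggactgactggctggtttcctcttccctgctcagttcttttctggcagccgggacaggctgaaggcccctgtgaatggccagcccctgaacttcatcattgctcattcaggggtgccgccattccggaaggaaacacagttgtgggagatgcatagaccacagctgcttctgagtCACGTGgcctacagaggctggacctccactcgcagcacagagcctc
Lamp1: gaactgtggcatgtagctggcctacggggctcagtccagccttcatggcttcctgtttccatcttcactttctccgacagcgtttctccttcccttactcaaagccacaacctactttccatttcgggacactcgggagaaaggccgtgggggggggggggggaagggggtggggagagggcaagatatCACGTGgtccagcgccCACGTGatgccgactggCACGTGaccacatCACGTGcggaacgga
Ctsc: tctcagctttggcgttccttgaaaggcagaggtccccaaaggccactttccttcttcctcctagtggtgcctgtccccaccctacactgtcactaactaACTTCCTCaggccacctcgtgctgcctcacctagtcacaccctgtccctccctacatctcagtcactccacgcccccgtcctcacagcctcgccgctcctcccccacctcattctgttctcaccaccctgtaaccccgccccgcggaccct

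The 35 genes together took the largest share of the library in population B. They held 1.01 to 1.60% of the assigned nuclear FPKM in the 6 B libraries (median 1.42%; mean 1.36% ± 0.22, SD, n = 6). The share was 0.690 to 0.867% in C, 0.391 to 0.683% in A, 0.340 to 0.624% in D, 0.270 to 0.553% in E and 0.277 to 0.592% in Neg. Each of the 6 B libraries lay above all 30 others, and C came next without overlapping A, D, E or Neg. Ctsd, Lamp1, Psap and Ctss made up 47.7% of the members' FPKM over all libraries. All 12 of 12 microglial and macrophage markers were higher in B than in A, C, D and E (C1qc by 4.37 ± 0.46 and Trem2 by 3.84 ± 0.30 on the log2 scale), against 15.4% of all genes. Also higher were 4 of 10 astrocyte, 3 of 6 endothelial, 3 of 5 oligodendrocyte precursor and 3 of 8 mature oligodendrocyte markers. Lower were 3 of 8 neuron markers and 1 of 8 mature oligodendrocyte markers. The summed FPKM of the 12 microglial markers was 883 to 1362 in B, 103 to 569 in C, 85.5 to 216 in A, 35.1 to 194 in D, 23.0 to 185 in Neg and 11.5 to 54.7 in E. After rescaling, the medians of that sum were 9652 in B, 2562 in Neg, 2235 in C, 1355 in A, 920.0 in D and 661 in E, so Neg lay above C there while its lysosomal share was lower. In E, Trem2 and Fcer1g were at 0 in 5 of 6 libraries each. In these bulk samples, fewer cells of a type and less RNA per cell cannot be told apart, and the part of microglial RNA in the lysosomal values was not tested. Without Ctss and Laptm5, which are themselves high in microglia, the share was 0.883 to 1.28% in B and at most 0.774% in any other library. The members kept, among them Grn, Lgmn and Ctsd, were not chosen for low levels in microglia. The microglial part of this share was therefore not tested either.

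**Figure D1:**
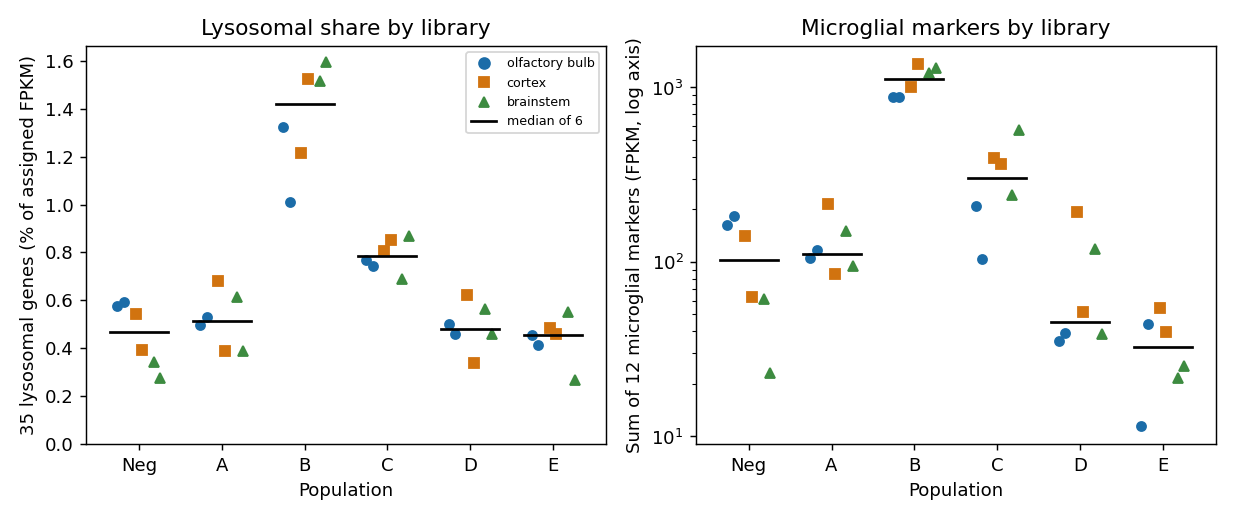
Share of each library's assigned nuclear FPKM held by the 35 lysosomal genes (left, percent) and summed FPKM of 12 microglial markers (right, log axis), by population; points are libraries, colours and shapes are regions, and lines are medians of 6. The 6 B libraries sit between 1.01 and 1.60% on the left and between 883 and 1362 FPKM on the right, above the libraries of every other population.

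Across the members, 26 of 35 were higher in B than in the mean of A, C, D and E, and 0 were lower. Of all 13578 genes, 15.4% were called higher and 0.361% lower in this comparison. A call means an adjusted p under 0.05 in limma's moderated test on log2(FPKM + 1), Benjamini-Hochberg adjusted over all genes tested. The median difference was 1.48 over the members and 0.35 over all genes. By role, 11 of 12 proteases, 4 of 8 glycosidases, 6 of 8 lipid genes and 5 of 7 membrane genes were called higher. Relative depth moved with this result: it was 2.71 to 4.07 in B and at most 2.37 in the 30 other libraries, and its part was not tested. The library numbers in the titles fall in 2 series. All D and E libraries are in the second series, and of B only brainstem B replicate 2 is. Series and population are thus partly confounded, and with the series as a term of the fit 12 members were called. In 24 of the 26, the median of B was also above that of each other population; the exceptions were Npc2 and Scarb2, whose medians were highest in C. Differences depend on scale: 8 members were called after rescaling each library to 1000000 (3.83% of all genes higher) and 15 after quantile normalization (4.01%). The same 8 (Ctsc, Ctsd, Ctss, Ctsz, Lgmn, Hexa, Grn and Laptm5) were called in each of the 47 other settings tried. Without the 2 libraries that carried olfactory bulb genes, 27 were called.

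**Figure D2:**
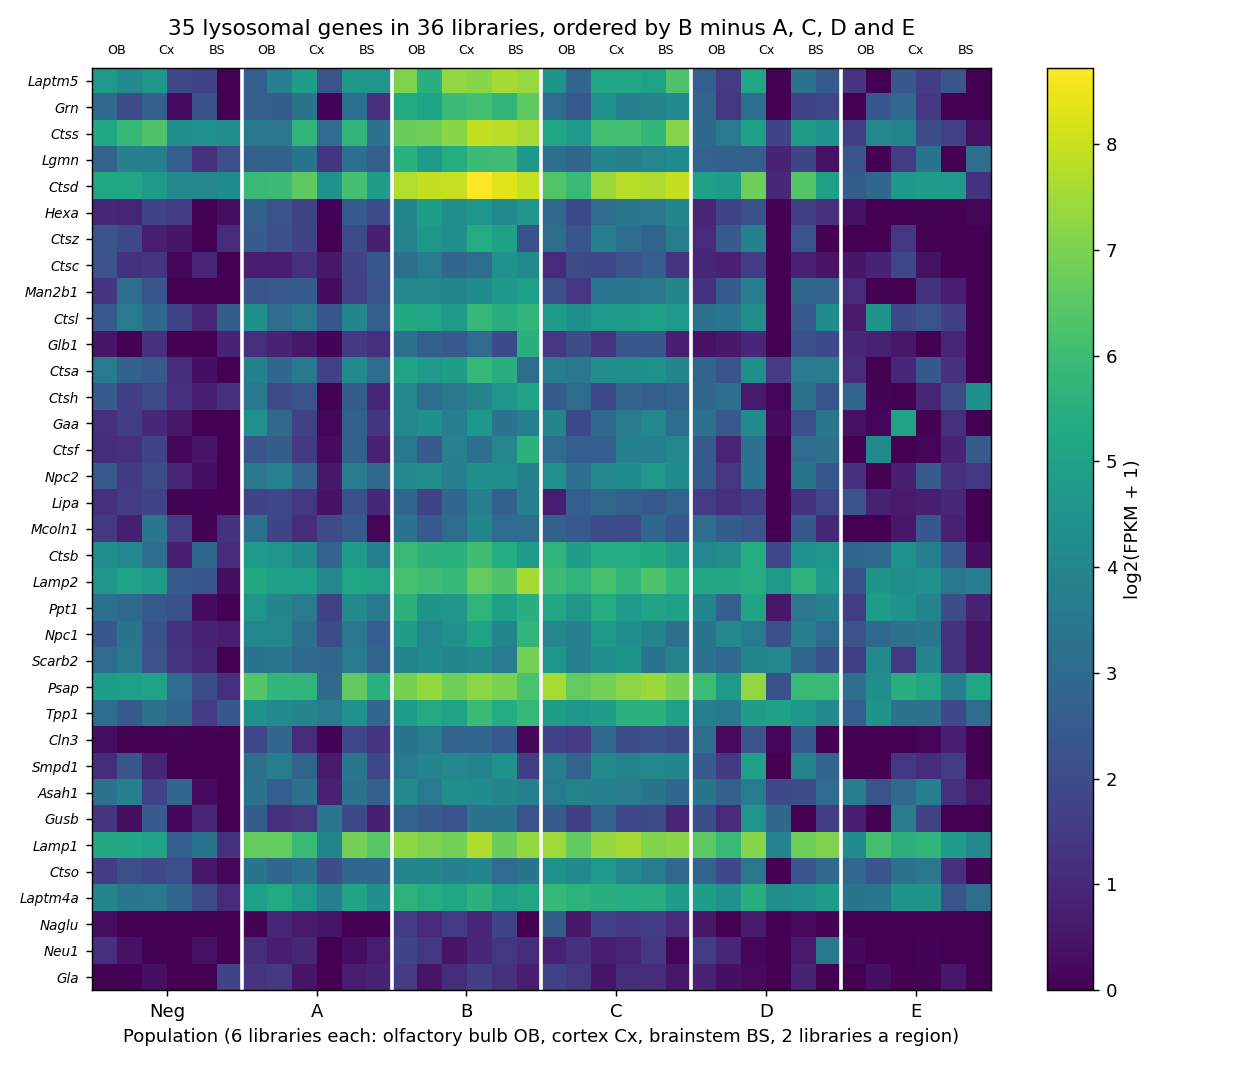
Levels of the 35 lysosomal genes as log2(FPKM + 1) (colour) in the 36 libraries (columns, by population and region), with rows ordered by the difference between B and the mean of A, C, D and E. The 6 B columns are brightest in the upper rows, while Lamp1, Psap and Laptm4a in the lower rows are bright in A, B, C and most D columns.

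Among the proteases, cathepsin S (Ctss, chr3:95526786-95556403), an endopeptidase of antigen-presenting cells, ranged from 106 to 245 FPKM in the 6 B libraries, with a median of 168. Its lowest, median and highest values were 25.3, 61.0 and 141 in C, 18.4, 28.2 and 78.3 in Neg, 7.36, 10.1 and 50.9 in A, 2.54, 16.0 and 30.2 in D and 0.309, 2.71 and 15.3 in E. As deposited, B and C overlapped only through brainstem C replicate 2, at 141 FPKM, and B lay above every library of the other 4 populations. After rescaling, cortex Neg replicate 1 (1301) lay above 3 of the B libraries (907, 1028 and 1284), and the median of Neg was second to that of B. The difference from A, C, D and E was 3.35 ± 0.46 (SE; limma adjusted p = 5.5e-06).

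Legumain (Lgmn, chr12:102394084-102439813), the asparaginyl endopeptidase that matures several cathepsins, ranged from 24.1 to 63.5 FPKM in B with a median of 44.0. It reached 17.9 in C (median 14.3), 12.9 in Neg (5.53), 9.43 in A (5.49), 5.67 in D (3.82) and 9.17 in E (2.96). As deposited, no library of another population reached the lowest B library. After rescaling, olfactory bulb Neg replicate 2 (226.5) and cortex Neg replicate 1 (214.4) lay above olfactory bulb B replicate 2 (213.2) and brainstem B replicate 2 (212.7). The difference was 2.92 ± 0.43 (limma adjusted p = 1.4e-05).

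Cathepsin D (Ctsd, chr7:142375911-142388038), the main aspartic protease of the lysosome, had the highest mean of the members over all libraries, 97.4 FPKM. It ranged from 208 to 422 FPKM in B with a median of 249.7. The lowest, median and highest values were 58.1, 186 and 243 in C, 20.8, 60.2 and 92.8 in A, 0.991, 30.7 and 110.5 in D, 15.3, 22.2 and 34.8 in Neg and 1.44, 15.4 and 26.4 in E. B and C overlapped, and all other populations lay below B. The difference was 2.82 ± 0.51 (limma adjusted p = 0.00025).

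Cathepsin C (Ctsc, chr7:88278085-88310888), the dipeptidyl peptidase that activates granule serine proteases, was at a lower level but was separated more cleanly by FPKM as deposited. It ranged from 6.38 to 20.9 FPKM in B and reached 5.07 in C, 4.19 in A, 3.66 in Neg, 2.71 in E and 2.09 in D. B did not overlap the other populations as deposited, and the difference was 2.45 ± 0.30 (limma adjusted p = 1.1e-06). After rescaling, olfactory bulb Neg replicate 1 (67.4) lay above cortex B replicate 1 (57.4) and cortex B replicate 2 (59.9). The other cysteine cathepsins called higher were Ctsz (2.61 ± 0.45), Ctsl (2.16 ± 0.49), Ctsh (1.96 ± 0.40), Ctsf (1.68 ± 0.47) and Ctsb (1.47 ± 0.42). The serine carboxypeptidase Ctsa, which also stabilises beta-galactosidase and neuraminidase 1, differed by 2.02 ± 0.39. The tripeptidyl peptidase Tpp1 differed by 1.27 ± 0.32. The exception was cathepsin O (Ctso), at 0.86 ± 0.35 (limma adjusted p = 0.094). Its median was 16.3 FPKM in C and 13.8 in B.

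The glycosidases divided by level as well as by population. Hexa (chr9:59539540-59565109), a hexosaminidase subunit that acts on GM2 ganglioside, ranged from 14.9 to 28.1 FPKM in B with a median of 20.6. It reached 14.5 in C (median 8.75), 5.58 in A (3.45), 3.57 in D (1.72), 2.41 in Neg (0.944) and 0.307 in E (0.0231). The groups did not overlap, although the highest C library lay just under the lowest B library. The difference was 2.79 ± 0.31 (limma adjusted p = 2e-07). Man2b1, lysosomal alpha-mannosidase, differed by 2.42 ± 0.41, the beta-galactosidase Glb1 by 2.11 ± 0.36 and the acid alpha-glucosidase Gaa by 1.68 ± 0.51, and all 3 were called higher.

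The other 4 glycosidases were not called, and 3 of them were close to the detection floor. Naglu, which acts on heparan sulfate, was at 0 to 2.34 FPKM in B (median 1.51), 0.480 to 4.95 in C (1.87) and at most 0.910 in every other library, with a difference of 0.62 ± 0.24 (limma adjusted p = 0.076). The neuraminidase Neu1 was at 0.389 to 2.55 FPKM in B (median 1.40), and its highest value of 10.5 came from the library labelled brainstem D replicate 2. The alpha-galactosidase Gla (median 1.29 in B and 1.18 in C) was at most 2.33 FPKM in any lettered library. Their differences of 0.54 ± 0.28 and 0.53 ± 0.23 were not called (adjusted p = 0.19 and 0.12), and their populations overlapped. These low genes have little room on the log2(FPKM + 1) scale, which understates ratios near 0. With a pseudocount of 0.1 in place of 1, 20 members were called higher (9.52% of all genes), and Naglu, Neu1 and Gla were not among them. Over the 47 other settings Naglu and Neu1 were called in 2 each and Gla in 0. Gusb, beta-glucuronidase, differed by 1.02 ± 0.40 (adjusted p = 0.077).

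Of the lipid genes, progranulin (Grn, chr11:102430315-102437048), a secreted precursor that is cut into granulins in the lysosome, stood furthest apart. It ranged from 32.6 to 92.5 FPKM in B with a median of 55.8. It reached 20.9 in C (median 14.1), 9.17 in A (5.07), 7.94 in D (2.52), 7.05 in Neg (3.32) and 6.89 in E (0.797). The groups did not overlap, and the difference was 3.58 ± 0.48 (limma adjusted p = 4e-06). The other lipid genes called higher were Npc2 and Npc1, which together export cholesterol (1.52 ± 0.39 and 1.45 ± 0.33), the acid lipase Lipa (1.49 ± 0.34), the palmitoyl thioesterase Ppt1 (1.47 ± 0.46) and the acid ceramidase Asah1 (1.15 ± 0.34).

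Prosaposin (Psap, chr10:60277627-60302597), the precursor of the saposins that activate sphingolipid hydrolases, had a different pattern. It ranged from 74.3 to 161 FPKM in B (median 123) and from 96.9 to 189 in C (median 134). Its lowest, median and highest values were 7.03, 52.0 and 95.4 in A, 3.54, 57.5 and 157 in D, 8.30, 26.2 and 44.5 in E and 1.34, 17.9 and 31.6 in Neg. B overlapped A, C and D. The difference of B from A, C, D and E was 1.30 ± 0.48 (limma adjusted p = 0.061), and 0.75 ± 0.35 after rescaling (adjusted p = 0.24). The acid sphingomyelinase Smpd1 was likewise not called (1.19 ± 0.47, adjusted p = 0.086), and 1 unassigned transcript over its position held 32.1% of the FPKM there.

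Among the membrane genes, Laptm5 (chr4:130913125-130936141), a lysosomal protein of blood and immune cells, ranged from 45.8 to 188 FPKM in B with a median of 151. It reached 76.8 in C (median 33.4), 34.2 in D (4.87), 28.3 in A (17.4), 24.8 in Neg (9.79) and 4.20 in E (1.77). Olfactory bulb B replicate 2, the lowest of B, overlapped C, and the 5 other B libraries lay at 129 FPKM or above. The difference of 3.90 ± 0.53 (limma adjusted p = 4.9e-06) was the largest of the 35. Lamp2 (1.47 ± 0.36), Scarb2, a receptor that carries hydrolase to the lysosome (1.31 ± 0.40), the calcium channel Mcoln1 (1.48 ± 0.38) and Cln3 (1.27 ± 0.38) were also called higher.

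Lamp1 (chr8:13159161-13175338), the abundant glycoprotein that lines the lysosomal membrane, ranged from 107 to 205 FPKM in B (median 141) and from 96.4 to 185 in C (median 152). Its lowest, median and highest values were 14.9, 91.5 and 119 in A, 14.2, 101 and 142 in D, 16.3, 37.8 and 69.3 in E and 1.45, 20.7 and 37.8 in Neg. B overlapped A, C and D and lay above E and Neg. The difference from A, C, D and E was 1.00 ± 0.42 (limma adjusted p = 0.10) and 0.42 ± 0.31 after rescaling. Laptm4a behaved alike on both scales, at 0.70 ± 0.29 and 0.15 ± 0.28, neither called, with a median of 37.7 FPKM in B and 42.9 in C.

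**Figure D3:**
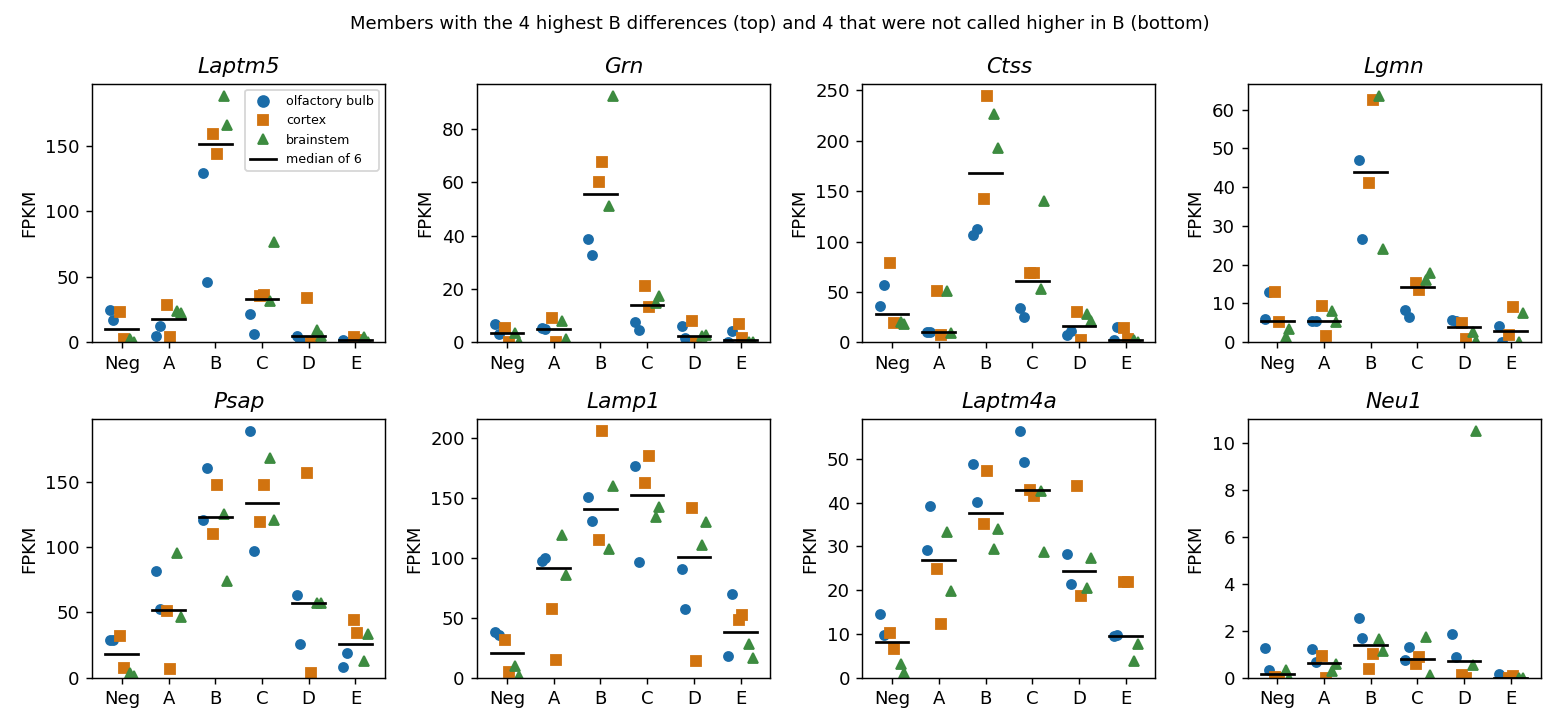
FPKM by library of the 4 members with the largest differences in B (top: Laptm5, Grn, Ctss, Lgmn) and of 4 members that were not called higher in B (bottom: Psap, Lamp1, Laptm4a, Neu1); points are libraries, colours and shapes are regions, lines are medians of 6. In the top row B has the highest medians, from 44.0 to 168 FPKM. B and C overlap there for Laptm5 and Ctss and not for Grn and Lgmn. In the bottom row B and C overlap for all 4 genes.

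Libraries of B differed among themselves by gene. Brainstem B replicate 2 was the highest of the 6 for 8 members and the lowest for 10. It is the only B library in the second series of library numbers. It had 5903 genes at 1 FPKM or more, against 9395 to 10357 in the 5 other B libraries. It held 46.0 FPKM of Glb1 against 2.87 to 8.47 in the 5 other B libraries, 118 of Scarb2 against 11.3 to 17.6, and 185 of Lamp2 against 55.8 to 97.8. It was low for Cln3 (0.141 against 4.57 to 10.7) and for Smpd1 (2.14 against 11.3 to 20.9). For Scarb2 the difference of B from A, C, D and E was 2.68 in brainstem, 0.70 in olfactory bulb and 0.53 in cortex. Cortex B replicate 2 was the highest for 15 members and the lowest for 0.

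Counted by libraries rather than by test, 5 members (Ctsc, Lgmn, Hexa, Man2b1 and Grn) had all 6 B libraries above all 24 libraries of A, C, D and E, as did 0.582% of all genes. The same 5 lay above all 30 libraries once Neg was included (0.552% of all genes). After rescaling, 6 lay above the 24 (Ctsd was added; 0.324%), and Ctsd, Hexa and Grn lay above all 30 (0.184%). No membrane gene did so on either scale. Against the 6 libraries of C alone, 6 members did not overlap with B on each scale (1.28% of all genes on each).

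By FPKM as deposited, C was the population nearest to B. After B, C had the next highest median for 27 members, and C had the highest median for the other 8 (Ctso, Naglu, Npc2, Psap, Smpd1, Lamp1, Scarb2 and Laptm4a). After rescaling, B had the highest median for 32 members, C for Ctso and Scarb2 and A for Laptm4a, and C came next after B for 24. In the direct comparison of B with C, 1 of 35 members was called, Ctsc, at 1.71 ± 0.38 (95% interval 0.93 to 2.48; limma adjusted p = 0.013). Of all genes 1.58% were called higher in B and 0.162% lower. The call on Ctsc was lost after rescaling, with a pseudocount of 0.1, without olfactory bulb C replicate 1 and without brainstem C replicate 2. Laptm5 (2.16 ± 0.67, adjusted p = 0.11), Grn (2.11 ± 0.60, adjusted p = 0.071) and Lgmn (1.69 ± 0.54, adjusted p = 0.13) had intervals above 0 but did not pass. In all, 9 members had a 95% interval above 0, 26 had one that included 0, and for 5 (Ctso, Gla, Naglu, Npc2 and Laptm4a) it ended under a log2 difference of 1. The members' median was 0.60, against −0.05 over all genes. Of the 12 microglial markers, 6 were called higher in B than in C and 0 lower, while of 10 astrocyte markers 0 were called.

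**Figure D4:**
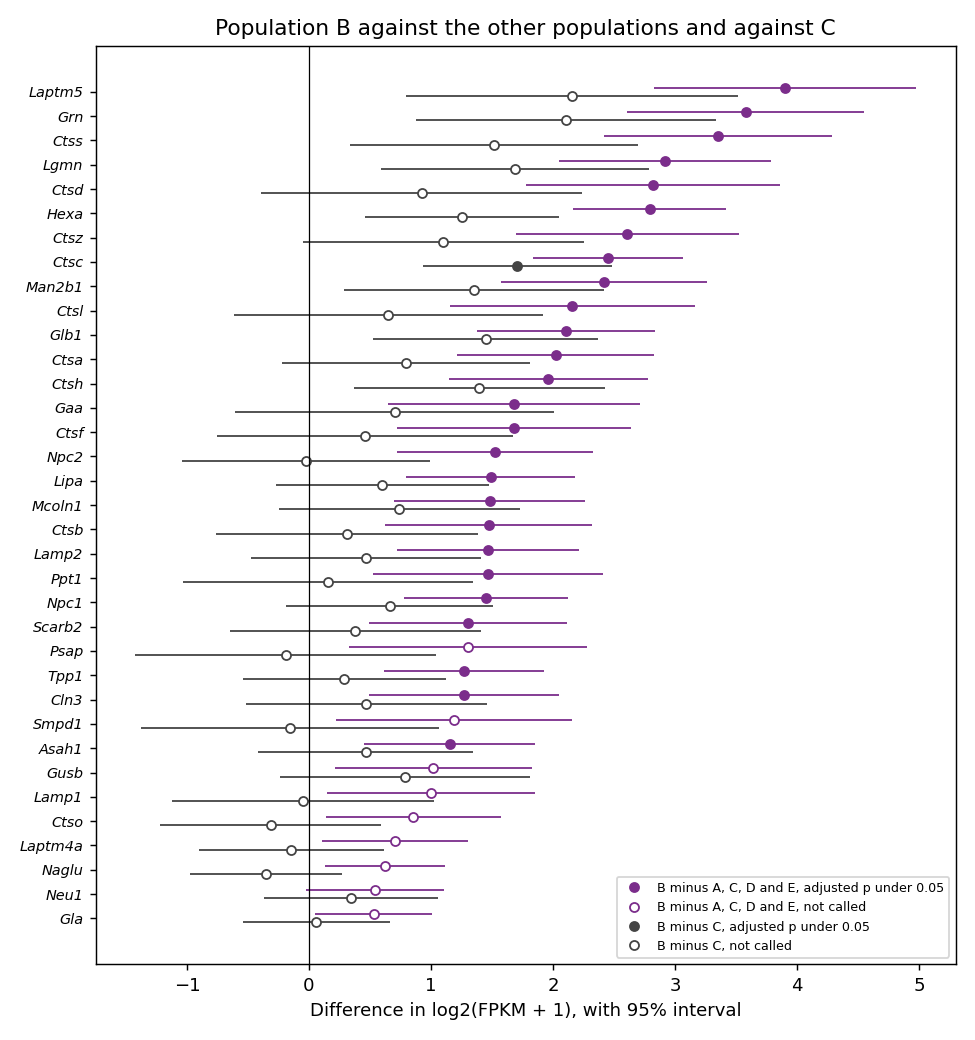
Difference in log2(FPKM + 1) with its 95% interval for each of the 35 members, for B minus the mean of A, C, D and E (purple) and for B minus C (grey); filled points passed an adjusted p under 0.05. The purple points run from 0.53 to 3.90, with 26 filled, and the only filled grey point is Ctsc, at 1.71.

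Against Neg, all 35 of 35 members were higher in B, in a comparison where 41.7% of all genes were called higher. After rescaling, 22 were called (8.29% of all genes), and 25 after quantile normalization (6.30%). Ctss, Lgmn and Laptm5 were not among the 22. Of the markers, 12 of 12 of microglia and 10 of 10 of astrocytes were also higher in B than in Neg, and their part was not tested. B lay above all 6 Neg libraries for 25 members (11.5% of all genes) by FPKM and for 11 (2.91%) after rescaling.

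When the mean of the 5 lettered populations was set against Neg, 21 of 35 members were called higher and 0 lower (20.2% of all genes higher, 0.140% lower). The order of the genes was another than in B. The largest differences were those of Lamp1 (2.55 ± 0.41, limma adjusted p = 0.00017), Psap (2.34 ± 0.47), Ppt1 (2.13 ± 0.45), Lamp2 (1.99 ± 0.36) and Laptm4a (1.94 ± 0.29). By role, 7 of 8 lipid genes, 5 of 7 membrane genes, 5 of 12 proteases and 4 of 8 glycosidases were called. On all 3 scales, 7 members were called higher (Cln3, Lamp1, Lamp2, Laptm4a, Ppt1, Psap and Smpd1). Of the genes that led in B, Laptm5 differed by 1.03 ± 0.52 in this fit (limma adjusted p = 0.14), Lgmn by 0.33 ± 0.42 (adjusted p = 0.53) and Ctss by −0.39 ± 0.45 (adjusted p = 0.50). After rescaling Ctss was called lower, at −1.68 ± 0.42 (limma adjusted p = 0.024). In the first series of library numbers alone Ctss differed by 1.00. That series holds no D or E library, so this value compares A, B and C with Neg. Over the 47 other settings the differences of Laptm5, Lgmn and Ctss reached at most 2.52, 1.41 and 1.00. All Neg libraries are in the first series and all D and E libraries in the second, so series and population are partly confounded. With the series as a term of the fit, 24 members were called. All 10 astrocyte markers were higher than in Neg, against 1 of 12 microglial markers, and the part of either in these differences was not tested. Both brainstem Neg libraries are among the 8 with few genes, so without those 8 the comparison covers olfactory bulb and cortex alone. The count fell to 12 without cortex Neg replicate 2 and to 5 without the 8 libraries with few genes (Ctso, Lamp1, Laptm4a, Ppt1 and Tpp1).

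Genes shared by all populations were counted by detection. At 1 FPKM or more in at least 33 of 36 libraries were 10 members: Ctsb, Ctsd, Ctss and Tpp1 of the proteases, Npc1 and Psap of the lipid genes, and Lamp1, Lamp2, Scarb2 and Laptm4a of the membrane genes. No glycosidase was among them. Tpp1, Psap, Lamp1 and Laptm4a were at 1 FPKM or more in all 36. Of the 10, 7 were also called higher in B, so wide detection and a higher level in B were not alternatives, and Psap, Lamp1 and Laptm4a were the 3 that were not called. At the other end, Naglu reached 1 FPKM in 9 libraries and Gla and Neu1 in 11 each.

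Among the other lettered populations, fewer members were called for A, C and D than for B, and more for E. These comparisons share libraries with those above. In A against B, C, D and E, 0 members were called (0% of all genes), with 0 at an unadjusted p under 0.05. In C against A, B, D and E, 7 were higher (Ctsd, Npc2, Psap, Ctss, Ctso, Hexa and Naglu; 7.51% of all genes), and after rescaling or quantile normalization 0 were. In D, 0 were called (0.103% of all genes called; 10 members at an unadjusted p under 0.05), and 10 were without cortex D replicate 1. In E, 33 of 35 were lower (42.5% of all genes lower), 14 after rescaling (20.8%) and 13 after quantile normalization (4.15%). The depth of E moved with this: it holds the 2 shallowest libraries and 3 of the 8 with few genes, and without those 8 libraries 20 members were called lower. Those 8 include both brainstem E libraries, so that count is for olfactory bulb and cortex alone. With the 2 series of library numbers as a term of the fit, 1 member was called lower. All E libraries are in the second series, and series and population cannot be told apart. Markers of several cell types were also lower in E, 11 of 12 of microglia, 9 of 10 of astrocytes and 5 of 6 endothelial. So were 5 of 5 of oligodendrocyte precursors, 3 of 3 of blood and 3 of 5 of pericytes and fibroblasts. Of mature oligodendrocyte markers 2 of 8 were lower, and of neuron markers 1 of 8. The part of these cell types was not tested.

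By region, few members were called. Over the 5 lettered populations, 0 members were called between olfactory bulb and cortex (3.73% of all genes called; 2 members at an unadjusted p under 0.05) and 0 between olfactory bulb and brainstem (5.19%; 2 members). Between brainstem and cortex 2 were called, 1 higher and 1 lower (0.486% and 1.27% of all genes). The members' median differences were 0.06, −0.02 and −0.02 in these 3 comparisons.

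Cathepsin H (Ctsh, chr9:90054152-90076089), an aminopeptidase, was at 1.00 to 32.4 FPKM in the 10 lettered brainstem libraries (median 5.62) and at 0 to 14.0 in the 10 cortex libraries (median 1.86). The ranges overlapped; in cortex the A, D and E libraries lay at 0 to 3.72 FPKM and the 2 B libraries at 10.4 and 14.0. The difference was 1.45 ± 0.39 (limma adjusted p = 0.049), and the call held in 12 of 47 other settings. Gusb (chr5:129989011-130003049) went the other way, with 0 to 9.27 FPKM in brainstem (median 1.42) and 1.68 to 22.2 in cortex (median 6.25). The ranges overlapped here too, and the highest value, 22.2, was that of cortex D replicate 1. The difference was −1.52 ± 0.39 (limma adjusted p = 0.034), called in 30 of 47 other settings. In the first series of library numbers alone, which holds no D or E library, it was 0.048. With the transcript of highest mean in place of the sum over transcripts, the 2 differences were 0.71 and −0.73 and neither was called.

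**Figure D5:**
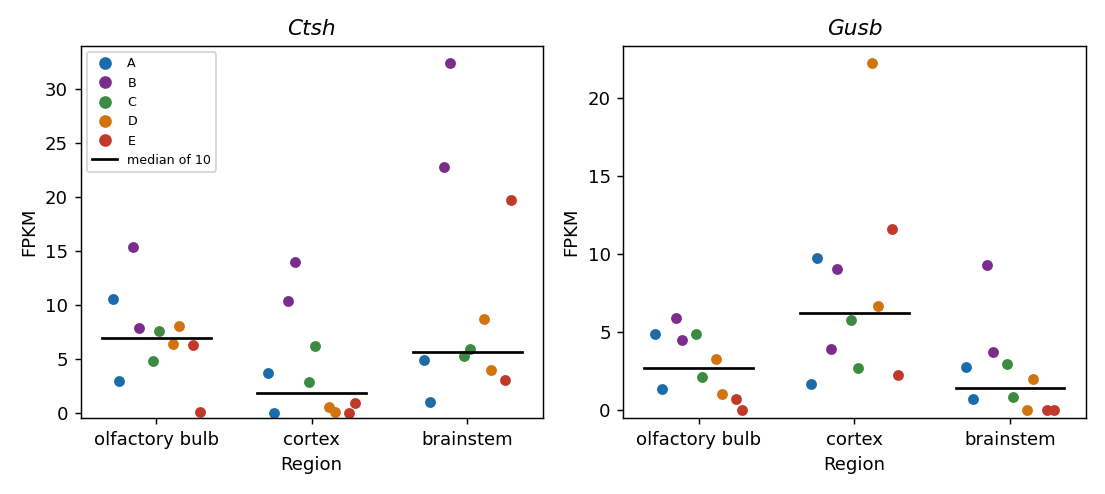
FPKM of Ctsh and Gusb, the 2 members called between brainstem and cortex, in the 10 lettered libraries of each region; colours are populations and lines are medians of 10. Median Ctsh was 5.62 in brainstem and 1.86 in cortex, median Gusb 1.42 and 6.25, and the ranges overlap for both genes.

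The difference between B and A, C, D and E was also taken within each region, in the order olfactory bulb, cortex and brainstem. For Laptm5 it was 3.89, 3.92 and 3.89 (SE 0.91 each; limma adjusted p = 0.021, 0.014 and 0.0085). For Ctss it was 3.17, 3.33 and 3.55 (SE 0.79 each; limma adjusted p = 0.032, 0.017 and 0.0058). Laptm5, Ctss, Hexa and Lgmn were called in all 3 regions, and the share of all genes called within a single region was not counted. Hexa differed by 2.79, 3.11 and 2.48 (SE 0.53 each; limma adjusted p = 0.0046, 0.0016 and 0.0041) and Lgmn by 2.78, 3.08 and 2.89 (SE 0.74 each; limma adjusted p = 0.048, 0.017 and 0.016). Grn, at 3.02, 3.62 and 4.10 (SE 0.82 each), was called in cortex and brainstem (limma adjusted p = 0.013 and 0.0023) and not in olfactory bulb (0.057). Ctsd, at 2.89, 2.92 and 2.64 (SE 0.88 each), was called in no region (limma adjusted p = 0.10, 0.058 and 0.083). No member's difference was called by limma to depend on region (0.0589% of all genes; 0 members at an unadjusted p under 0.05), and no member was called to vary by region within B (0.810% of all genes; 1 member, Cln3, at an unadjusted p under 0.05). Within a region the standard errors of the differences ran from 0.40 to 0.91.

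Of 95 further lysosomal genes in lists chosen by function, 89 were tested, and 38 were higher and 1 lower in B than in A, C, D and E. By list, 14 of 24 other hydrolases, 11 of 18 other membrane proteins, 5 of 18 proton pump subunits, 5 of 13 sorting genes, 1 of 3 cysteine protease inhibitors and 2 of 13 genes of transcription and nutrient sensing were called higher, against 15.4% of all genes; 2 of 13 is near that share. Among the large differences were those of Cd68, a macrophage glycoprotein related to Lamp1 (3.23 ± 0.40), the pump subunits Atp6v0b (2.58 ± 0.52) and Atp6v0d1 (1.73 ± 0.52), and cystatin C, Cst3, an inhibitor of cysteine cathepsins (1.95 ± 0.40). Cd68 had a median of 64.3 FPKM in B and 12.3 in C. The smallest differences called were those of the ion channel Tpcn2 (0.67 ± 0.16) and the adaptor Gga2 (0.63 ± 0.21). The pump subunit Atp6v1g2, known as the form of neurons, was the gene called lower (−1.32 ± 0.42), and 3 of 8 neuron markers were called lower in the same comparison. Tfeb and Tfe3, the transcription factors of the CLEAR network, differed by 0.95 ± 0.32 and 1.67 ± 0.36, with medians in B of 2.16 and 7.45 FPKM.

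Set against the calls in B, CACGTG was in 9 of the 22 matched members called higher in B and in 3 of the 9 not called. GAGGAAGT was in 2 of 22 and 2 of 9, and neither split was tested.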

How the data were processed

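Per the labels, total RNA of 36 samples was made into cDNA with the NuGEN Ovation V2 system, which does not mark strand, and sequenced on a HiSeq. The submitters' processing notes name bcl2fastq 1.8.3, TopHat, Cufflinks and mm10. The deposited values are FPKM per transcript, 1 library a table, and coverage, per the file headers; coverage, the deposited signal of read depth, gave relative depth. Of 63241 transcripts, 52543 (83.1%) were assigned to GENCODE genes of the same build by the overlap of their spans (score of 0.5 or more), and FPKM was summed per gene; they held 89.5 to 96.7% of nuclear FPKM.

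Genes at 1 FPKM or more in 2 or more libraries were tested with limma 3.58.1 (R 4.3.3) on log2(FPKM + 1), fitting 18 group means, with 18 residual degrees of freedom and regions weighted equally. Cufflinks intervals near 10 FPKM had half-widths of 10.1 to 16.5% in all but the 2 shallowest libraries. Named in full are the members with the 6 largest and 3 smallest differences in B, the 4 highest means and those called by region; other members named with all their values (Ctsc, the widely detected Laptm4a and the spread within B) were chosen after their values were seen. Of the further lysosomal genes, those with the 6 largest and 3 smallest differences called in B were to be named, and some of them are not reported here. Alternatives covered scaling, pseudocount, filter, transcript choice, weights, the library numbers in the titles (2 series) and libraries left out. The members and lists were chosen with earlier results of these data known.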

Additional observations from a re-analysis of the deposited data

How the results depend on the processing

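Counts below are members called in each comparison, with the reported count first. The first series holds no D or E library, so results there are for A, B, C and Neg alone. B is then set against A and C. Without the libraries with few genes, no brainstem library of Neg or E is left. Comparisons against Neg and of E then cover olfactory bulb and cortex alone, and the other comparisons hold no brainstem E. Against A, C, D and E, B had 26, and 8 after rescaling, 15 by quantile normalization, 12 when the 2 series of library numbers had a term of their own and 12 in the first series alone; leaving out single libraries gave 18 to 32. Against Neg, B had 35, and 22 after rescaling (33 to 35 without single libraries). Against C, B had 1, and 0 after rescaling and with a pseudocount of 0.1, 2 with the transcript of highest mean, the series term or quantile normalization, 5 without the libraries with few genes and 8 in the first series; it was 0 to 4 without single libraries, 4 without either cortex D library, 2 without either cortex A library or brainstem B replicate 1, and 0 without olfactory bulb C replicate 1 or brainstem C replicate 2. The lettered populations against Neg had 21, and 8 after rescaling (7 higher, 1 lower), 10 after quantile normalization (9 higher, 1 lower), 35 in the first series and 5 without the libraries with few genes; it was 12 to 28 without single libraries, 12 of them without cortex Neg replicate 2. There Ctss was at −0.39 with all libraries and at 1.00 in the first series alone, where A, B and C were set against Neg.

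A had 0, and 4 lower in the first series (0 to 0 without single libraries). C had 7, and 0 after rescaling, after quantile normalization, under the series term and in the first series, 1 with a pseudocount of 0.1 and without the libraries with few genes, 4 without the 2 libraries with olfactory bulb genes and 19 with library weights; it was 0 to 18 without single libraries, of which 23 moved it by over 1.5 times, to 0 without olfactory bulb C replicate 1, cortex C replicate 1 or brainstem C replicate 1 and to 18 without cortex D replicate 1. D ranged from 0 to 10, E from 28 to 35. E had 33, and 14 after rescaling, 13 after quantile normalization, 1 under the series term and 20 without the libraries with few genes. All D and E libraries are in the second series, so series and population cannot be told apart there. Between brainstem and cortex the count was 2, and 1 after rescaling, after quantile normalization, with a pseudocount of 0.1 and without the 2 shallowest libraries, and 0 with no filter, the transcript of highest mean, library weights, the first series and without the libraries with few genes; it was 0 to 3 without single libraries, of which 29 moved it. Gusb was at −1.52 with all libraries and at 0.048 in the first series, over A, B and C. Between olfactory bulb and cortex the count of 0 became 2 without the libraries with few genes, 1 without the 2 libraries with olfactory bulb genes and 0 to 1 without single libraries (1 without olfactory bulb E replicate 2); between olfactory bulb and brainstem it became 1 with the transcript of highest mean and in the first series and 2 without the libraries with few genes (0 to 0 without single libraries). Within B it was 0 to 1 (1 without brainstem B replicate 1), and for the dependence on region 0 to 0. The causes were not tested. No paired analysis was possible because the labels give no replicate numbers.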
